A study of Saccharomyces cerevisiae with 12 samples.

Results

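The genes described here encode the cytosolic large-subunit ribosomal proteins Rpl1 to Rpl30 of *S. cerevisiae*. They were taken by systematic identifier, a rule that uses no measured value, and all 53 were found among the 7079 loci of the deposited tables. They make 30 proteins, of which 23 are encoded by a pair of paralogs named A and B and 7 by a single gene (RPL3, RPL5, RPL10, RPL25, RPL28, RPL29 and RPL30). The study grew 12 cultures in YPD, a rich medium made with yeast extract, peptone and dextrose. Control YPD was used for 3 of them, and 3 each were given 1.5 μg/ml of tetracycline (Tet), doxycycline (Dox) or 4-epidoxycycline (4-ED), the epimer of Dox, to ask which compound disturbs yeast gene expression least. RNA was selected for mRNA and sequenced.

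All cultures, controls included, were of strain R1158, which carries his3-1, leu2-0 and met15-0, is MATa and was derived from BY4741, the name given in the sample labels. It holds the tetracycline-controlled transactivator tTA, under a CMV promoter, at URA3, so every culture contained a protein that binds these compounds. LEU2 and MET17 (MET15) were listed at 0 in every group. STE2, a receptor specific to MATa cells, was at 142 FPKM in the controls against 4.70 FPKM for its MATα counterpart STE3. The other MATa genes looked up, MFA1, MFA2 and BAR1, were at 1925, 4638 and 35.7 FPKM in the controls. The MATα genes MF(ALPHA)1 and MF(ALPHA)2 were at 26.9 and 33.5 FPKM there, close to BAR1. HIS3 was listed at 63.5 FPKM in the controls, his3-1 being a partial deletion. Cells were collected at a set optical density rather than a set time, and per the study's methods the cultures with a tetracycline took longer to reach it. Growth rate and treatment can therefore not be told apart in any comparison below.

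Each table holds 1 value per gene and group, in FPKM (fragment counts scaled for transcript length and library size), for the 3 cultures of a group together. The spread between cultures and the depth behind a gene are unknown. The authors' own test columns were not used, and the group values alone allow no error, interval or test. The comparisons therefore describe group values, and a gene's ratio is set beside the same quantity over all loci. In the text, log2 ratio means log2 of treated over control FPKM. The same 3 control cultures serve all comparisons. Because each table was scaled on its own, their FPKM values are not equal across tables, with a median ratio of 0.984 for the Tet over the Dox table and 1.02 for the Dox over the 4-ED table. In bulk RNA, fewer cells that express a gene and less RNA per cell cannot be told apart.

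The large subunit of the ribosome joins amino acids into protein and carries the tunnel through which the new chain leaves. In yeast most of its proteins are encoded by gene pairs kept from an ancient genome duplication, and a ribosome takes its copy of a protein from either gene. The genes are transcribed together at high rates in growing cells, mostly through the factor Rap1 with Fhl1, Ifh1 and Sfp1, and their transcription follows nutrient supply and growth rate. Many carry an intron, which is uncommon in yeast. Of the 53 genes, 33 had more than 1 coding exon.

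Copies of a pair can be so alike that a sequenced fragment fits both, which limits what can be said of A against B. For each gene, the share of 76-base windows within coding exons that occur once in the R64 genome was computed, 76 being the number of sequencing cycles. The windows below, from the RefSeq R64 sequence and written 5′ to 3′ on the coding strand, show the range. Capitals mark bases that differ between the copies. They lie in RPL22A (chrXII:263721-263796, plus strand) and RPL22B (chrVI:64398-64473, minus strand), in RPL24A (chrVII:437663-437738, minus strand) and RPL24B (chrVII:787508-787583, minus strand), and in RPL1A (chrXVI:136079-136154, plus strand) and RPL1B (chrVII:254930-255005, plus strand).
RPL22A: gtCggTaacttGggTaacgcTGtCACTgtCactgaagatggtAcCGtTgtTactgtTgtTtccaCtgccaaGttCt
RPL22B: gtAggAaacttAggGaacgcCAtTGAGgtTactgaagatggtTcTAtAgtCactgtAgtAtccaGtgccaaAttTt
RPL24A: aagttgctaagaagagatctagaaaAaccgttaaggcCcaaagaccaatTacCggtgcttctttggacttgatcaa
RPL24B: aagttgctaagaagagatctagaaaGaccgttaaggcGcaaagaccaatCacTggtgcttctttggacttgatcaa
RPL1A: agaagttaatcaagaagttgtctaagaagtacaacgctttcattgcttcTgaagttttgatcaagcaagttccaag
RPL1B: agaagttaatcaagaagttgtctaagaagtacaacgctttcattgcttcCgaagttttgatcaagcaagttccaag

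The copies of RPL22 differ at 21 of these 76 bases, those of RPL24 at 4 and those of RPL1 at 1. Over the coding sequence, all windows of RPL22 and RPL24 were unique, and 28.8% of those of RPL1A and RPL1B. RPL4 (38.3%), RPL11 (44.2%) and RPL7 (45.6%) were the other pairs under 50%, which leaves 45 of the 53 genes at or above it. The proteins of 7 pairs are identical, those of RPL22 are the least alike at 84.4% identity, and those of RPL16 follow at 89.9%. How the authors' counting divided fragments that fit both copies is not given in the sources used here, so values of single copies of RPL1, RPL4, RPL7 and RPL11 are uncertain.

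A second limit is that 10 of the 53 genes share their listed span with another locus in the tables, and whether the counting used strand is not given in the sources used here. RPL28 shares its span with YGL102C, which was listed at 971 FPKM in the controls of the Tet table against 325 FPKM for RPL28 itself. RPL10 shares its span with YLR076C (807 against 624 FPKM) and RPL22A with YLR062C (231 against 97.8 FPKM). RPL7B shares its span with YPL197C (145 against 124 FPKM). The listed span is that of both loci together, and how far the genes themselves overlap was not measured. For these genes part of the fragments may have been given to the other locus. The others are RPL7A, RPL8B, RPL12A, RPL12B, RPL13B and RPL21A. The introns of RPL7A and RPL7B also hold small nucleolar RNA genes. The tables list only 518 bases for RPL20A and RPL20B, the second exon, since RefSeq places only the first base of the coding sequence in the exon before the intron.

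As a group the genes were more highly expressed with Tet and with Dox than in control YPD, and not with 4-ED. With Tet, 50 of 53 genes had a log2 ratio above 0, where 64.3% of all loci with a mean of at least 10 FPKM did, and 3 had one below 0, where 35.7% of loci did. Their median was 0.34, a fold of 1.27, against 0.071 over all 5898 such loci. With Dox, again 50 of 53 were above 0, against 43.5% of 5913 loci, with a median of 0.21 (1.16-fold) for the genes and -0.032 for all loci. With 4-ED only 20 of 53 were above 0, against 46.8% of 5875 loci, with a median of -0.045 for the genes and -0.017 for all loci. The quartiles of the genes at 0.21 and 0.42 with Tet, at 0.14 and 0.29 with Dox and at -0.18 and 0.066 with 4-ED. With Dox 3 genes and with 4-ED 33 genes were below 0, against 56.5% and 53.2% of loci.

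**Figure D1:**
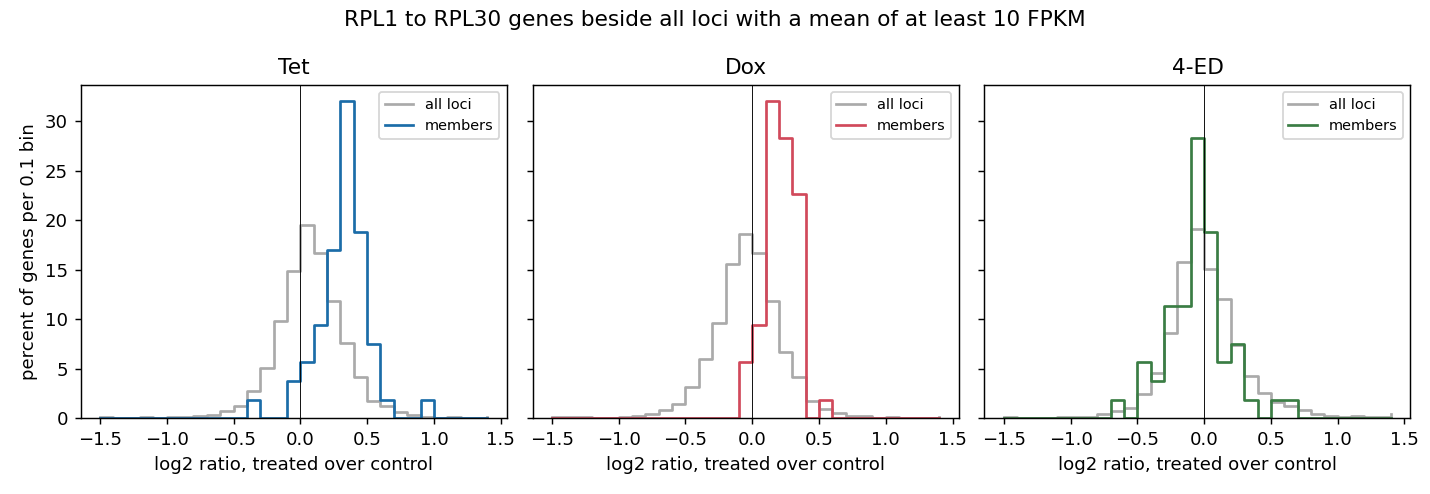
Percent of genes in each bin of 0.1 (y axis) against the log2 ratio of treated to control FPKM (x axis) for the 53 RPL1 to RPL30 genes (coloured line) and for all loci with a mean of at least 10 FPKM (grey line), 1 panel per treatment; values past 1.5 in size are drawn in the outermost bins. The genes' median of 0.34 with Tet and 0.21 with Dox sits to the right of the median of all loci (0.071 and -0.032), while with 4-ED it does not.

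Summed over the 53 genes, the level was 25456 FPKM in the controls and 32452 FPKM in the cultures grown in Tet. In the Dox table it went from 25866 to 29878 FPKM, and in the 4-ED table from 25249 to 26685 FPKM. As a share of the FPKM of all listed loci, the genes made up 1.48% of the controls and 1.80% of the Tet cultures, and 1.48% and 1.86% in the Dox table. In the 4-ED table the share was 1.48% in both groups. The summed FPKM of the 53 genes rose 1.27-fold with Tet, 1.16-fold with Dox and 1.06-fold with 4-ED. In the 4-ED table RPL29 alone went from 2267 to 3631 FPKM, while 33 of the 53 genes had a log2 ratio below 0. The shares also depend on the total FPKM of all loci, which was not equal between groups, so shares and rises are not in the same order. The ribosomal RNA loci are listed at 0 in all groups and do not enter these sums.

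Most of the ratios were small. A ratio of at least 1.5-fold was taken as the threshold in place of a test. With Tet 2 genes passed it upwards, RPL22A and RPL24A, where 2.88% of all loci did, and 0 downwards, against 1.24% of all loci. With Dox 0 genes passed it in either direction, against 1.47% of all loci upwards and 2.3% downwards. With 4-ED RPL29 passed it upwards and RPL28 downwards, against 4.07% and 1.77% of all loci. These counts are too small to set the genes apart from other loci at this threshold. At a lower one, 0.32 on the log2 scale, 32 genes were higher with Tet where 14.3% of all loci were, 7 with Dox where 414 of 5913 loci were, and 3 with 4-ED where 11.2% were.

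**Figure D2:**
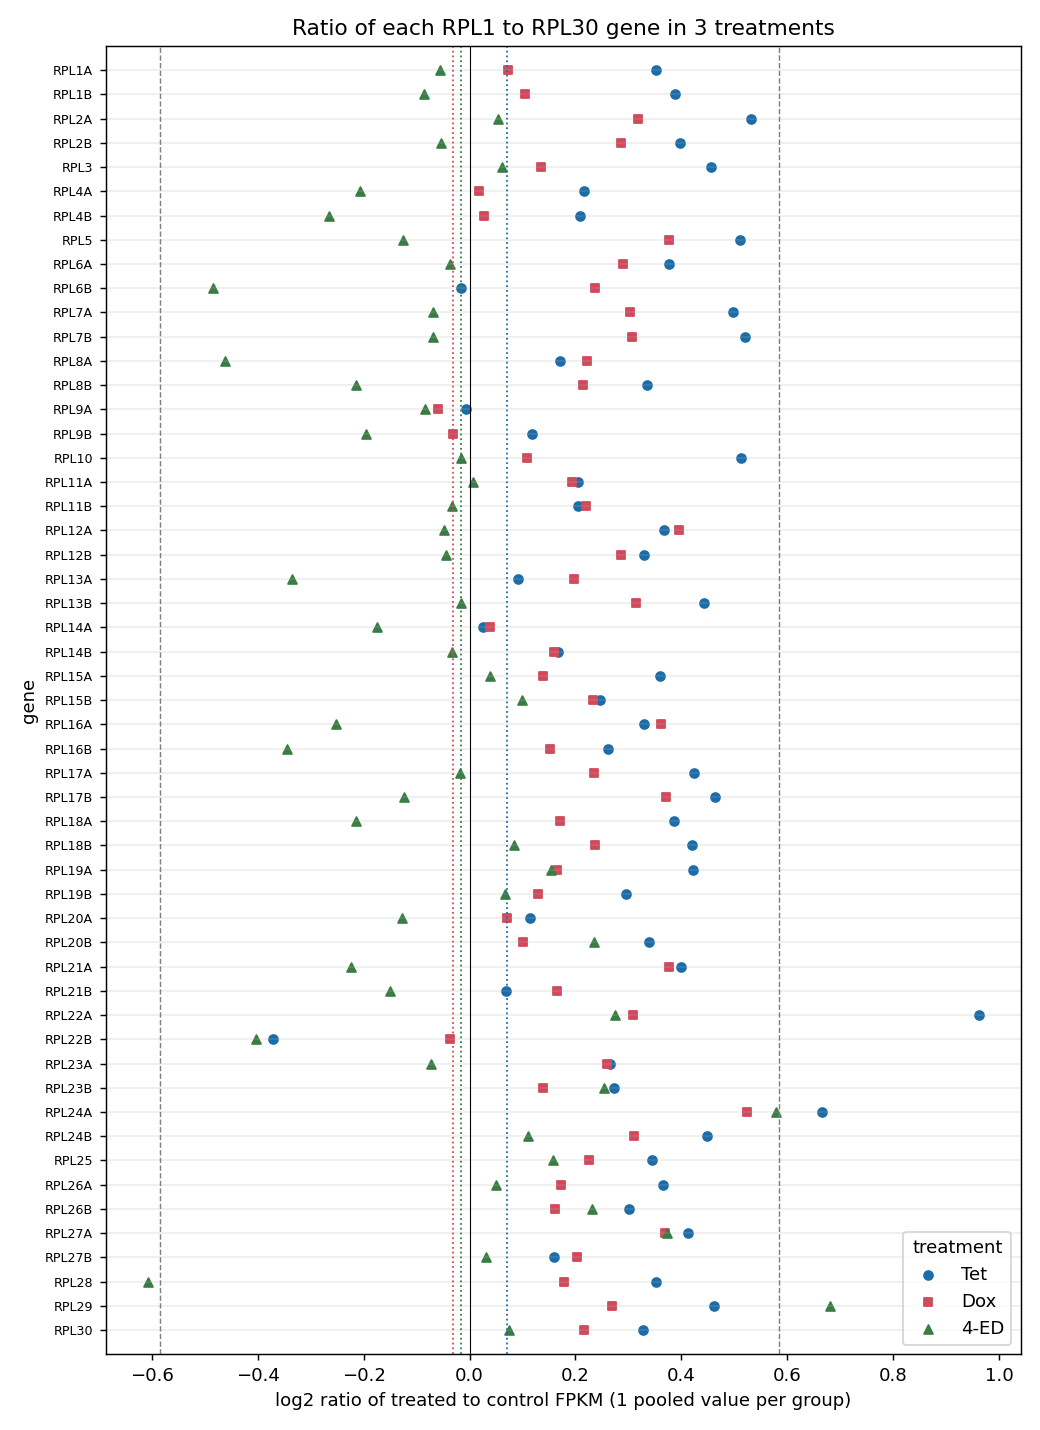
Log2 ratio of treated to control FPKM (x axis) of each of the 53 genes (y axis) with Tet (circles), Dox (squares) and 4-ED (triangles), 1 pooled value per group. Dotted lines mark the median of all loci for each treatment and dashed lines a ratio of 1.5-fold; most circles and squares lie right of 0, most triangles left of it, and RPL22A with Tet stands farthest out at 0.96.

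Among the 7 single-copy genes all ratios were above 0 with Tet and with Dox. RPL3, whose protein lies by the peptidyl transferase centre, was at 1037 FPKM in the controls and 1421 FPKM with Tet, a log2 ratio of 0.46, with ratios of 0.14 with Dox and 0.062 with 4-ED. RPL5 encodes the protein that carries the 5S ribosomal RNA into the subunit. It was at 439 FPKM in the controls and 626 FPKM with Tet (0.51), and at 446 and 579 FPKM in the Dox table (0.38), the highest single-copy ratio with Dox. With 4-ED its log2 ratio was -0.13.

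RPL10, whose protein joins the subunit late in its maturation, was at 624 FPKM in the controls and 890 FPKM with Tet, a log2 ratio of 0.51, about that of RPL5. With Dox the same gene was at 683 FPKM against 634 FPKM, a log2 ratio of 0.11, the smallest of the single-copy genes. RPL25, whose protein sits at the exit of the tunnel, had log2 ratios of 0.34, 0.23 and 0.16 with Tet, Dox and 4-ED. RPL30, whose protein binds its own transcript and blocks its splicing in yeast, had log2 ratios of 0.33, 0.22 and 0.074. It was the second most abundant of the genes, with 1696 FPKM in the controls, behind RPL29 and ahead of RPL3. The least abundant were RPL22A, RPL22B and RPL7B, the last at 124 FPKM.

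RPL28 and RPL29 were farthest apart with 4-ED. RPL29 (YFR032C-A, chromosome VI, 223258 to 223437), the shortest of the genes at 180 coding bases and the most abundant, was at 3631 FPKM with 4-ED against 2267 FPKM in the controls, a log2 ratio of 0.68. Its log2 ratios with Tet and Dox were 0.46 and 0.27. RPL28 (YGL103W, chromosome VII, RefSeq 310967 to 311927), the gene in which mutations give cycloheximide resistance, went from 321 to 211 FPKM with 4-ED, a log2 ratio of -0.61, against 0.35 and 0.18 with Tet and Dox. YGL102C, which shares its span, went from 965 to 1305 FPKM with 4-ED, a log2 ratio of 0.44. The lower value of RPL28 thus stands beside a higher value of the locus that shares its listed span, whose part in the result was not tested.

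The single-copy genes had a median log2 ratio of 0.46 with Tet against 0.33 for the 46 paired genes. With Dox the medians were 0.22 and 0.21, and with 4-ED 0.062 and -0.051. The ranges overlapped in every treatment, from 0.33 to 0.51 for single-copy genes and from -0.37 to 0.96 for paired genes with Tet. The difference between the medians was thus 0.12 with Tet, 0.0083 with Dox and 0.11 with 4-ED. Adding the FPKM of both copies before taking the ratio left it at 0.11, 0.0100 and 0.12.

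A copies were not higher than B copies as a class, nor lower. With Tet the A copy had the higher log2 ratio in 12 of 23 pairs and the B copy in 11, with a median difference of 0.0075. The same counts, 12 and 11, were found with Dox and with 4-ED, at median differences of 0.0073 and 0.030. The comparisons share their controls, so the counts are not independent. The copy with the higher control level had the higher ratio in 13 pairs with Tet, 9 with Dox and 11 with 4-ED. The median size of the difference was 0.12 for Tet, 0.065 for Dox and 0.11 for 4-ED.

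How much copies differed went with how well they can be told apart. In the 4 pairs under 50% unique windows (RPL1, RPL4, RPL7 and RPL11) the difference between copies reached at most 0.036 with Tet, 0.034 with Dox and 0.059 with 4-ED. In the 10 pairs with unique windows only, its median size was 0.24, 0.15 and 0.33. Across the 23 pairs, Spearman's rho between the size of the difference and the share of unique windows was 0.67 for Tet, 0.54 for Dox and 0.60 for 4-ED. These values are descriptions across pairs that share libraries, and the part of fragments that fit both copies was not tested.

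**Figure D3:**
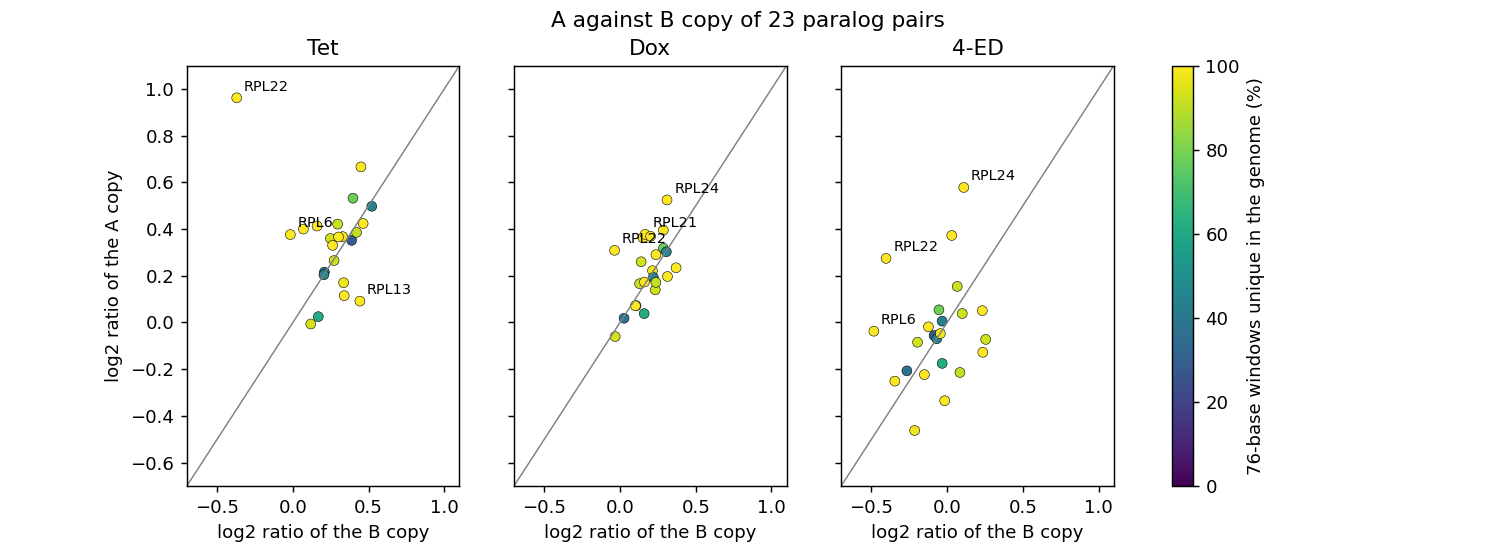
Log2 ratio of the A copy (y axis) against the B copy (x axis) of each of the 23 pairs, 1 panel per treatment, coloured by the percent of 76-base coding windows that are unique in the genome; the line marks equal ratios and the 3 pairs with the largest difference are named. Pairs with few unique windows (dark) lie on the line, and RPL22 lies far above it with Tet, at 0.96 for A and -0.37 for B.

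RPL22 was the pair whose copies differed most. Rpl22 is not essential in yeast, and its protein represses the splicing of RPL22B transcripts. RPL22A (YLR061W, chromosome XII, RefSeq 263194 to 263948) was at 97.8 FPKM in the controls and 191 FPKM with Tet, a log2 ratio of 0.96 and the highest of all 53 genes. RPL22B (YFL034C-A, chromosome VI, 64243 to 64932) was at 106 and 81.8 FPKM, the lowest log2 ratio at -0.37. The difference between the copies was 1.33, and the A copy made up 48.1% of their summed FPKM in the controls and 70.0% with Tet.

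The same order of the RPL22 copies was seen in the other treatments, at smaller sizes. With Dox RPL22A was at 123 FPKM against 99.4 FPKM and RPL22B at 105 against 107 FPKM, log2 ratios of 0.31 and -0.036. With 4-ED RPL22A was at 117 FPKM against 97.0 FPKM and RPL22B at 79.4 against 105 FPKM, log2 ratios of 0.27 and -0.40. The A share of the pair was 54.0% with Dox and 59.6% with 4-ED. Summed over both copies, RPL22 was at 204 FPKM in the controls and 272 FPKM with Tet, a log2 ratio of 0.42, which lies within the range of the other proteins. YLR062C, which shares the listed span of RPL22A, had log2 ratios of -0.13, 0.23 and 0.13 with Tet, Dox and 4-ED, and its part in the values of RPL22A was not tested.

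RPL24A had one of the highest ratios in each treatment. Rpl24 forms a bridge between the subunits and is not essential. RPL24A (YGL031C, chromosome VII, 437467 to 437934) was at 680 FPKM with Tet against 428 FPKM in the controls (0.67), at 626 against 435 FPKM with Dox (0.52) and at 634 against 425 FPKM with 4-ED (0.58). Its log2 ratio was the highest of the 53 genes with Dox and second to RPL22A with Tet and to RPL29 with 4-ED. RPL24B, the more abundant copy at 919 FPKM in the controls, had log2 ratios of 0.45, 0.31 and 0.11. RPL24A shares no listed span with another locus and all its windows were unique.

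RPL6 and RPL13, the next pairs with Tet, also had unique windows throughout. With Tet, RPL6A was at 456 against 352 FPKM (0.38) and RPL6B at 126 against 128 FPKM (-0.017). In RPL13 the B copy was the higher, with RPL13B at 531 against 391 FPKM (0.44) and RPL13A at 139 against 131 FPKM (0.091). In 3 pairs the copies had opposite signs with Tet, namely RPL22, RPL6 and RPL9, but RPL6B and RPL9A (-0.0066) were close to 0. RPL22 alone had copies on opposite sides of 0 with Dox. With Dox the next largest differences were in RPL24 and RPL21 (0.38 for A and 0.17 for B). With 4-ED they were in RPL24 and RPL6, whose A copy was at -0.038 and B copy at -0.48, where RPL6B was at 90.6 against 127 FPKM.

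With both copies added, RPL9 had the lowest ratio of the pairs with Tet (0.086) and with Dox (-0.040). RPL9A was at 210 against 211 FPKM with Tet and at 206 against 215 FPKM with Dox, and RPL9B had log2 ratios of 0.12 and -0.032. RPL9A, RPL9B and RPL22B were the only genes of the 53 below 0 with Dox. RPL14A also had ratios near 0, of 0.025 and 0.038. RPL4, whose protein lines part of the tunnel, had log2 ratios of 0.22 and 0.21 for its copies with Tet and of 0.018 and 0.027 with Dox.

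At the other end with Tet, behind RPL22A and RPL24A, stood RPL2A at 0.53, with 367 against 254 FPKM, and RPL7B at 0.52. The copies of RPL7 share many windows, and RPL7B shares its span with YPL197C, which had a log2 ratio of 0.062 with Tet. Rpl2 lies close to the peptidyl transferase centre. With Dox RPL12A followed RPL24A, at 411 against 313 FPKM (0.40), and then RPL21A, at 443 against 341 FPKM (0.38). Rpl12 forms part of the base of the stalk where elongation factors bind. RPL12A shares its span with YEL053W-A, which had a log2 ratio of -0.84 with Dox.

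With 4-ED the lowest values after RPL28 were those of RPL6B (-0.48) and RPL8A, at 227 against 312 FPKM (-0.46). RPL22B, RPL16B (-0.35) and RPL13A (-0.34) followed. The highest after RPL29 and RPL24A were RPL27A, at 897 against 693 FPKM (0.37), RPL22A, RPL23B (0.25), RPL20B (0.24) and RPL26B (0.23). With 4-ED the copies took opposite signs in 6 pairs, namely RPL2, RPL11, RPL18, RPL20, RPL22 and RPL23. RPL20A was at -0.13 and RPL23A at -0.073, while in RPL18 the A copy was at -0.21 and the B copy at 0.084. In RPL2 (0.054 and -0.054) and RPL11 (0.0057 and -0.034) both copies were close to 0. RPL2, RPL18, RPL20 and RPL23 are among the pairs with identical proteins.

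With 4-ED the ratios went with gene length. The 6 genes under 400 coding bases had a median log2 ratio of 0.15, the 29 from 400 to 600 bases -0.038 and the 18 of 600 bases or more -0.069. All protein-coding loci showed the same order by span with 4-ED, with medians of 0.20, 0.061 and -0.040. With Tet these loci had the same order too, at 0.14, 0.12 and 0.063, and with Dox medians of -0.012, -0.0085 and -0.040. Over all loci the order is therefore not particular to 4-ED. Span includes introns, so the bins are unlike for genes that have one. RPL22A, for example, has 366 coding bases and a listed span of 761, shared with YLR062C. Across the 53 genes Spearman's rho between ratio and coding length was -0.37 with 4-ED, 0.16 with Tet and -0.091 with Dox, over values that share libraries. Without RPL29, an alternative added after the data were seen, rho was -0.33 with 4-ED and the median of the 5 genes left under 400 bases was 0.074. RPL29 and RPL28 show that length does not order them fully, with 180 and 450 coding bases and the highest and the lowest ratio. The part of length in these ratios was not tested further.

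**Figure D4:**
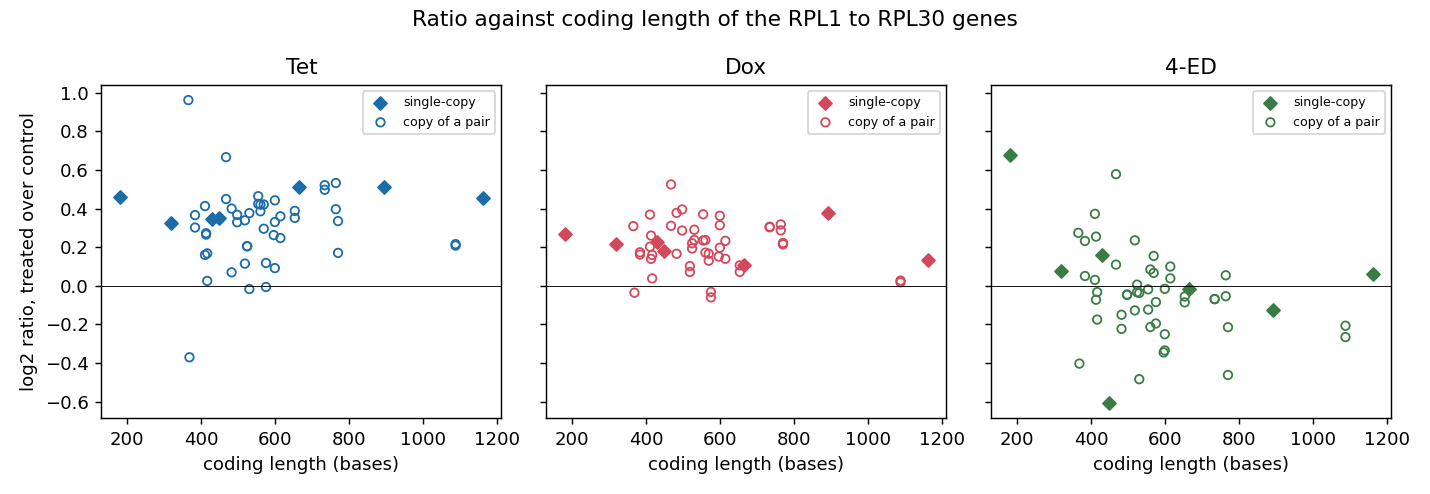
Log2 ratio of treated to control FPKM (y axis) against coding length in bases (x axis) of the 53 genes, 1 panel per treatment, with single-copy genes as filled diamonds and copies of pairs as open circles. With 4-ED the shortest gene, RPL29 at 180 bases, is highest at 0.68 and most genes of 600 bases or more lie below 0. With Tet and Dox no such slope is seen among these 53 genes.

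The compounds were compared at the same concentration through the difference of a gene's log2 ratios, in which the common controls cancel. A factor shared by both groups of a table cancels in each log2 ratio, but an offset in scale between its treated and control groups does not. Dox lay above its epimer 4-ED in 47 of 53 genes, with a median difference of 0.21 against -0.036 over 5845 loci, of which 42.9% were above 0. The difference ran from -0.41 in RPL29 to 0.79 in RPL28. RPL6B (0.72), RPL8A (0.68), RPL16A (0.61) and RPL21A (0.60) followed RPL28. RPL24A, RPL27A, RPL20B, RPL23B and RPL26B were, with RPL29, the genes with a lower ratio for Dox.

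Against Tet, 4-ED was lower in 52 of 53 genes, with a median of -0.37 against -0.079 over 5847 loci, of which 67.2% were below 0. RPL29 was the exception. Dox was lower than Tet in 43 of 53 genes, with a median of -0.13, but over 5872 loci the median was -0.12 and 78.1% were below 0, so the genes lay near the background there. RPL22A showed the largest gap between Dox and Tet at -0.65. No interval can be given for these differences.

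Upstream of the genes, the 500 bases before the start codon were searched on both strands for short patterns of letters. These were forms of the Rap1 and Abf1 sites, a forkhead site and a run of T. ACCCNNACA with a further C before it, a strict form of the Rap1 site, was found at 9 of 53 genes (17.0%) and at 2.21% of 6006 nuclear coding genes. ACCCNNACA without that C, which takes in all of the former matches and was added after the first result was seen, was found at 22 genes (41.5%) and at 5.46% of all. The matches at 4 genes are shown, picked because their values are given in full as the lowest with 4-ED or, for RPL22B, with Tet, with the match in capitals, 5′ to 3′ on the strand of the gene, from RefSeq R64. They lie at chrVI:65156-65190 (minus strand) for RPL22B, chrVII:310690-310724 (plus strand) for RPL28, chrXII:1028402-1028436 (plus strand) for RPL6B and chrVIII:36243-36277 (minus strand) for RPL8A. The matches start 245, 264, 439 and 239 bases before the start codon, and the match of RPL6B is in the reverse direction.
RPL22B: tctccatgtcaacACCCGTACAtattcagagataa
RPL28: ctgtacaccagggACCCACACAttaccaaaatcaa
RPL6B: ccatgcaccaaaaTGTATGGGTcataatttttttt
RPL8A: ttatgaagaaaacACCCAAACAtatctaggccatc

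Low and high genes were found on both sides. RPL22A, RPL24A and RPL29, with high ratios, have no match in their windows, and neither has RPL16B, which was low with 4-ED. RPL7A, at 0.50 with Tet, and RPL20B, RPL23B and RPL26B, among the highest with 4-ED, have one. The 22 genes with the shorter match had median log2 ratios of 0.28 for Tet, 0.19 for Dox and -0.062 for 4-ED, and the 31 without it 0.39, 0.23 and -0.033, with ranges that overlap. GTAAACA, a forkhead site that is not taken here as a site of Fhl1, was found at 4 genes (7.55%) and at 10.3% of all. TCA and ACG with 6 bases of any kind between them, a loose form of the Abf1 site, were found at 10 genes (18.9%) and at 22.7% of all, and a run of 8 T at 28 genes (52.8%) and at 44.2% of all.

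The other genes of the ribosome gave a similar picture with Tet and Dox. Of 28 genes for the remaining large-subunit proteins, 26 were above 0 with Tet and 26 with Dox, at medians of 0.40 and 0.25. Of 56 genes for the small subunit, 52 and 50 were above 0, at medians of 0.33 and 0.18. With 4-ED the remaining large-subunit genes were above 0 in 21 of 28, at a median of 0.24, and the small-subunit genes in 34 of 56, at 0.064. Past 1.5-fold upwards were 5, 2 and 3 of the remaining large-subunit genes with Tet, Dox and 4-ED, and 1, 0 and 4 of the small-subunit genes, against 2.88%, 1.47% and 4.07% of all loci. Downwards, 1 remaining large-subunit gene passed with Tet and 2 small-subunit genes with 4-ED, against 1.24% and 1.77% of all loci.

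Among the genes of factors that act on these promoters, medians were nearer 0 than those of the 53 genes with Tet and Dox, and alike with 4-ED. None of the 7 listed (RAP1, FHL1, IFH1, SFP1, HMO1, CRF1 and ABF1) reached 1.5-fold in any treatment. Between 1.24% and 4.07% of all loci did so in a given direction and treatment, so 7 genes are too few to differ from that. Their medians were 0.048, -0.031 and -0.040 with Tet, Dox and 4-ED. SFP1, an activator of ribosomal protein genes, was at 43.1 FPKM with Tet against 56.1 FPKM in the controls, with log2 ratios of -0.38, -0.36 and -0.44. RAP1 had ratios of 0.18, -0.033 and -0.040, and IFH1 of 0.028, -0.0056 and -0.12. ABF1 had the highest with Tet and Dox, at 0.47 and 0.34. Among 5 chaperones that each serve a large-subunit protein, SYO1, which binds Rpl5 and Rpl11, had ratios of -0.57, -0.24 and -0.67. With 4-ED SYO1 was at 8.62 FPKM against 13.7 FPKM in the controls, past 1.5-fold downwards, where 1.77% of all loci were. With Tet it was at 9.36 against 13.9 FPKM, short of that threshold. These levels lie close to the filter on low values, a mean of at least 10 FPKM. SQT1, which serves Rpl10, was at -0.37, -0.26 and -0.33, and RRB1, which serves Rpl3, at 0.020, -0.0021 and -0.41. ACL4, which serves Rpl4, was at 0.16, 0.047 and -0.18, and BCP1, which serves Rpl23, at 0.25, 0.012 and 0.059. Of the 5 chaperones, 3 were above 0 with Tet, 2 with Dox and 1 with 4-ED, at medians of 0.020, -0.0021 and -0.33. Over all loci 64.3%, 43.5% and 46.8% were above 0, and 5 genes are too few to set apart from these shares.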

How the data were processed

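mRNA from 12 yeast cultures in 4 groups of 3 was analysed. Per the labels and the study's methods, the authors checked reads with FastQC, aligned them to build R64 by Bowtie2, and compared groups in Cuffdiff under an Ensembl annotation. They deposited 1 Cuffdiff table per treatment against the controls, with group FPKM values that pool 3 libraries. Bowtie2 does not split reads over introns, so fragments across a splice junction are largely lost. The annotation was release 92 of Ensembl for R64-1-1, and the versions of the tools are not given in the sources used here. The tables also hold the authors' fold changes, test statistics, p-values and q-values, which were not used. Therefore no gene was tested here, and numbers of genes past 1.5-fold stand beside the same share of all loci with a mean of at least 10 FPKM.

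Log2 ratios were computed without a pseudocount from values above 0, all 53 genes having passed the filter on low values. A row naming no gene was left out. Of the loci, 5999 matched a RefSeq locus tag, and 5363 of them had the same start and end. Promoters, coding windows and identities came from the RefSeq R64 genome and annotation. Python 3.11.15, pandas 2.3.3, numpy 2.4.6 and Biopython 1.88 were used. The fold count was tested on simulated data. Every gene of the list may be named. Values are given in full for single-copy genes, the highest and lowest ratios and levels, and the pairs that differ most. The rule for the genes uses no measured value, but the set of genes and the other lists were chosen with earlier results of these data known.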

Additional observations from a re-analysis of the deposited data

How the results depend on the processing

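No paired analysis was possible because the tables hold 1 pooled value per group, and for the same reason no replicate could be left out. Moving the threshold changed the number of genes past it most. At a lower threshold, 0.32 on the log2 scale, 32 genes were higher and 1 lower with Tet, 7 higher with Dox, and 3 higher and 6 lower with 4-ED, where in the same order 14.3%, 5.09%, 7.0%, 11.2% and 8.58% of all loci were. At 2-fold 0 genes remained with Tet and 0 in either direction with 4-ED. Centring on the median of all loci gave 2 genes higher with 4-ED, and moved the median difference of Dox minus Tet from -0.13 to -0.026. Leaving out the 10 genes that share their span with another locus, an alternative added after the data were seen, left 1 gene higher with Tet (RPL24A) and 0 lower with 4-ED. The medians of the genes were then 0.33, 0.19 and -0.034. A pseudocount of 1 FPKM, the mean control of the 3 tables and the genes with at least 50% unique windows moved no median by more than 0.1. The background share of loci past 1.5-fold lay between 0.831% and 5.97% over the sets of loci tried. Depth per gene is unknown, and no difference can be set against the spread between cultures.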

Other observations

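Added over A and B copies, the FPKM values for the 30 proteins were far from equal. A ribosome holds these proteins in equal number, but FPKM measures RNA and not protein. In the controls of the Tet table the summed values ran from 204 FPKM for RPL22 to 2286 FPKM for RPL29, a ratio of 11.2, with a median of 724 FPKM. RPL22A shares its listed span with YLR062C and RPL29 has only 180 coding bases, and their part in this range was not tested. With 4-ED the ratio of highest to lowest was 18.5 and the coefficient of variation across proteins 73.1%, against 11.2 and 50.8% in the controls of the same table. Without RPL29, an alternative added after the data were seen, the ratio with 4-ED was 9.00 against 8.33 in the controls, and the coefficient 50.4% against 42.7%. With all 30 proteins, the coefficients with Tet and Dox were 53.8% and 52.2%. With 4-ED the lowest was again RPL22, at 197 FPKM, and the highest RPL29, at 3631 FPKM. Summed pairs were above 0 in all 23 cases with Tet, in 22 with Dox, RPL9 being the exception at -0.040, and in 7 with 4-ED.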
